A study of Mus musculus with 40 samples.

Results

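Acetylation of histone H3 at lysine 27 (H3K27ac) was compared between interscapular brown adipose tissue (iBAT) of mice fed a high-fat diet (HFD) and mice fed chow (NCD), all housed warm. The members are the merged H3K27ac regions of the 4 warm mice, sorted by the lists that hold a peak. There were 36754 such regions, against 47548 when the 4 cold-exposed mice were merged in as well. A region counted as NCD-only when both NCD lists and neither HFD list had a peak in it, and as HFD-only in the opposite case.

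All animals were wild type C57BL/6N mice aged 20 weeks, fed chow up to the age of 8 weeks. Mice 1 and 2 stayed on chow, and mice 7 and 8 received HFD for 12 weeks. A cold arm, used here only for what the members do in other animals, held mice 4 and 5 on NCD and mice 10 and 11 on HFD, kept at 4 °C for 24 h. The series has 40 samples over several histone marks and inputs. The labels give 1 mouse number per sample, while the study's methods speak of tissue from a pair of mice per sequencing experiment, so whether a library held 1 animal or pooled tissue is not settled. The tissue was dissociated whole, without sorting, and fewer cells of a type and less acetylation per cell cannot be told apart.

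H3K27ac is laid down by histone acetyltransferases such as p300 and CBP at active promoters and active enhancers, and H3K4me3 is the companion mark of active start sites while H3K4me1 is typical of enhancers. In brown adipocytes, enhancers and promoters bound by PPARγ, C/EBP factors and PRDM16 carry H3K27ac at genes for uncoupled respiration, such as Ucp1, and for lipid storage. Regions whose summit lay within 1000 bp of an annotated start site are called promoter regions here, and all others distal.

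The 4 libraries differed widely in yield. Mouse 1 had 16889 peaks and mouse 2 had 28433, both on NCD, while mouse 7 had 3224 and mouse 8 had 33798, both on HFD. The diets overlapped, and the mean difference, HFD minus NCD, was -4150 peaks (exact permutation test over mice, two-sided, p = 1). With 2 mice against 2 this test cannot give a p below 0.333. The background at which peaks were called, recovered from the deposited fold and p, was 3.32, 4.08, 2.33 and 10.3 fragments per kb in mice 1, 2, 7 and 8, a value shared by 64.2%, 55.8%, 42.4% and 20.6% of their peaks. Mouse 7 had the fewest peaks and the lowest recovered background, and mouse 8 the most peaks and the highest background. This background was not checked against read totals. Of the 2227 regions with a peak in mouse 7, the lists of mice 1, 2 and 8 shared 97.3%, 99.1% and 99.6%.

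Marker genes were checked first. A peak summit lay at the start site of 8, 10, 6 and 9 of the 11 brown adipocyte markers in mice 1, 2, 7 and 8, and of 6, 5, 4 and 6 of the 6 general adipocyte markers. No warm list had one at any of the 6 macrophage or 4 lymphocyte markers, nor at Alb or Neurod1. A longer list of 18 macrophage markers had 0, 1, 0 and 1, the gene being Cd14 with folds of 8.14 in mouse 2 and 3.27 in mouse 8. White adipocyte markers had 1, 1, 0 and 0 of 5, skeletal muscle markers 1, 1, 0 and 1 of 8, and endothelial markers 3, 5, 1 and 5 of 5. Their part in the results below was not tested.

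NCD-only regions numbered 749, or 2.04% of all regions, and HFD-only regions 13, or 0.0354%. A further 2160 regions had a peak in all 4 lists. The largest pattern, 9759 regions, was a peak in mice 1, 2 and 8 but not 7, and the next, 9245, a peak in mouse 8 alone. Since mouse 7 held so few peaks, its list alone limited the HFD-only class: without mouse 7 there were 9261 regions in mouse 8 and neither NCD mouse, against 753 in both NCD mice and not mouse 8. Without mouse 8 there were 25 regions in mouse 7 and neither NCD mouse, against 10727 in both NCD mice and not mouse 7. Which class was larger therefore depended on the HFD mouse that was kept.

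**Figure D1:**
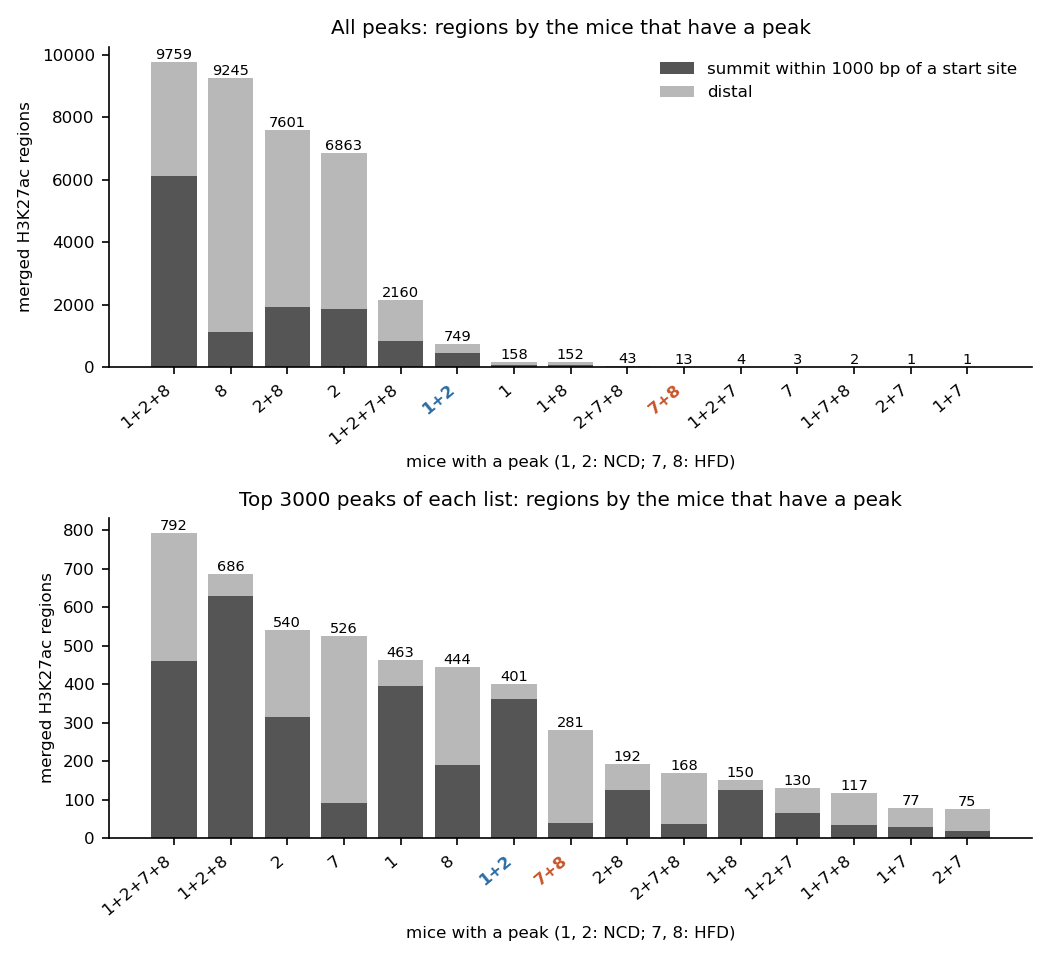
Merged H3K27ac regions (y axis, number) by the set of mice with a peak (x axis), from all peaks (upper) and from the top 3000 peaks of each list (lower); dark bars are promoter regions, light bars distal ones. The NCD-only pattern (1+2, blue) held 749 and 401 regions and the HFD-only pattern (7+8, orange) 13 and 281.

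The NCD-only regions were mainly promoters. Of the 749, 454 (60.6%) were promoter regions and 295 distal, whereas 33.9% of all regions and 38.4% of those in all 4 lists were promoter regions. Of the 9759 regions in mice 1, 2 and 8 but not 7, 6126 were also promoter regions. The high promoter share was therefore not particular to regions missing from both HFD lists. The NCD-only regions were narrow, with a median width of 563 bp against 2670 bp for regions in all 4 lists. Most were weak within their own lists: taking the lower of each region's percentiles by p in mice 1 and 2, the median was 29.4 at promoters and 14.6 at distal regions, and 1 of the 749 lay above the 90th percentile in both mice.

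Sequences at the summits show what kind of DNA the classes hold. Each window below is 201 bases centred on the summit, on the plus strand of GRCm38, with CpG dinucleotides in capitals. The first 4 come from NCD regions: an intron of Lep, an intron of Smg6 beside the Srr start site, an intron of Fsd2 nearest Gm37829, and the intergenic side of the Dgat2 start site.
Lep, NCD-only, 506 bp from the start site, chr6:29060626-29060826: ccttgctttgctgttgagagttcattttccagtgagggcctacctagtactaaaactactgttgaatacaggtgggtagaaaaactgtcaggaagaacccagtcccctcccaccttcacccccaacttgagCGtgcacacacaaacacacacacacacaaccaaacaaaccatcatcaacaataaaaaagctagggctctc
Srr, NCD-only, 381 bp from the start site, chr11:74926229-74926429: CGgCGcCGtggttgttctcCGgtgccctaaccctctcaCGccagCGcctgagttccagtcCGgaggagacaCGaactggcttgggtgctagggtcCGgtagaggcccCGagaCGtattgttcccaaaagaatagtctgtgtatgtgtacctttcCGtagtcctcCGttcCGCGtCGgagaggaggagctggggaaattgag
Gm37829, NCD-only, 16283 bp from the start site, chr7:81548704-81548904: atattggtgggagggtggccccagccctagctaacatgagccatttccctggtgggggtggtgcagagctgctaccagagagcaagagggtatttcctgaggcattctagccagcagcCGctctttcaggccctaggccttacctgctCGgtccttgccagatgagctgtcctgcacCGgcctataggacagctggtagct
Dgat2 promoter, NCD-only among the top 3000, 215 bp from the start site, chr7:99182834-99183034: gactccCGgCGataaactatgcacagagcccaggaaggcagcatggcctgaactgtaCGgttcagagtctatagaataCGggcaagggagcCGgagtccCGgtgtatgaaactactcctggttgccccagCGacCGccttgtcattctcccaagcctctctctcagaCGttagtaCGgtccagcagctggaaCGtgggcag

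The next 4 come from HFD regions: an intergenic region nearest the 5S rRNA gene n-R5s43, an intergenic region nearest Crhr1, an intron of Dgat2, and an intron of Fabp12.
n-R5s43, HFD-only, 12804 bp from the start site, chr15:100436780-100436980: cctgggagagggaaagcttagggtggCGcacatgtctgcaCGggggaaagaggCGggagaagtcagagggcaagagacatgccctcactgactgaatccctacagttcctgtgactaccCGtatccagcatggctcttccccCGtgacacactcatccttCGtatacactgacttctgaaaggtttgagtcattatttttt
Crhr1, HFD-only, 67668 bp from the start site, chr11:104065087-104065287: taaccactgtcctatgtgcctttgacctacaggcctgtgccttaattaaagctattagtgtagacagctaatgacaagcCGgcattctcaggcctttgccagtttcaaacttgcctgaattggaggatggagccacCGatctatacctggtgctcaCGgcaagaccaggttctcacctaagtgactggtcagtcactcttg
Dgat2 distal, HFD-only, 19939 bp from the start site, chr7:99162680-99162880: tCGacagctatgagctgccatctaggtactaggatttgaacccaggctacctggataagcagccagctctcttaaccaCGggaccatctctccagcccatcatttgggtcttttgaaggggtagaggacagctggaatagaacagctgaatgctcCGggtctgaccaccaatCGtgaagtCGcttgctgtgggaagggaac
Fabp12, HFD-only among the top 3000, 15809 bp from the start site, chr3:10285265-10285465: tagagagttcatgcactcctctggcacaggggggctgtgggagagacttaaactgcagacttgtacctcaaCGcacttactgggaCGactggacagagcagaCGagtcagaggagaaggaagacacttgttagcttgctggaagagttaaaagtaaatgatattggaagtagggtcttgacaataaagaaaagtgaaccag

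The Srr window held 16 CpGs and the Dgat2 promoter window 11. The HFD windows held between 3 and 6, and the Lep window 1. Over whole classes, NCD-only promoter windows had a median GC content of 62.9% and 14 CpGs, against 58.7% and 10 at all 12445 promoter windows on the chromosomes and 54.2% and 7 at promoters in all 4 lists. NCD-only distal windows had 52.7% GC, against 47.8% at all distal windows. Both NCD-only kinds were thus richer in GC than the regions they were drawn from.

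Short motifs were counted in the same windows. GGGCGG, the letters bound by SP and KLF factors, occurred on either strand in 34.6% of NCD-only promoter windows and 24.6% of all promoter windows, and in 9.15% and 3.21% of the distal ones. AGGTCA, the core of nuclear receptor sites, occurred in 7.05% of NCD-only promoter windows against 11.2% of all promoter windows. TGANTCA (AP-1) was in 3.08% against 3.28% and TTGCNNAA (C/EBP) in 4.85% against 5.54%. Among the printed windows, n-R5s43 held the AP-1 letters and Crhr1 the nuclear receptor core, and the others held none of the 9 motifs searched. The search, on both strands, also took in TGACGTCA (cAMP response element), TCAAGGTCA (estrogen-related receptors, overlapping the nuclear receptor core), CCGGAAG (ETS), GCATGCGC (NRF1) and TGTTTAC (forkhead). A match is a description of letters and not a bound site.

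The strongest NCD-only promoter regions lay at named genes as follows. A 335 bp region 721 bp from the non-coding RNA gene Gm27940 stood far above the rest, with folds over input of 56.8 in mouse 1 and 48.1 in mouse 2. The same place had an H3K27ac peak in all 4 cold mice and an H3K4me3 peak in all 4 warm mice. H3K4me1 was called there in mice 1 and 2 and not in mice 7 and 8. The H3K4me1 lists of mice 1 and 7 held only 592 and 12 peaks. B9d1os followed with folds of 9.78 and 12.5, Ttpal (a lipid transfer protein of the CRAL-TRIO family) with 9.39 and 11.4, Srr (serine racemase) with 7.97 and 10.3, and Ss18l1 (a subunit of neuronal BAF complexes) with 10.2 and 9.56. Each of these was a start site peak at the 75th percentile or above in both mice.

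The strongest distal NCD-only regions lay nearest Gm28502, Pisd-ps1, Gm37829, Gm48913 and Gm9403, none of them annotated as protein-coding. At Gm37829 the folds were 8.23 and 9.88, and at Pisd-ps1 7.55 and 9.25. Gm37829 was also nearest to 3 NCD-only regions, as was AC127690.1, and no other gene had as many. Of the 295 distal regions, 166 had the summit in an intron, 109 between genes, and the rest in exons.

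Of the 13 HFD-only regions, 3 were promoter regions: 2 on the mitochondrial chromosome and 1 at Gm28438 on chromosome 1, an unprocessed pseudogene. They were among the strongest peaks by p in both HFD lists, with deposited folds of 5.13 and 3.62 at mt-Tw and 3.15 and 4.83 at Gm28438. All 3 also carried an H3K4me3 peak in both HFD mice and in neither NCD mouse. The same held for H3K4me1, but its lists held only 592 peaks in mouse 1 and 12 in mouse 7. Mice 1 and 2 had no mitochondrial H3K27ac peak, and mice 7 and 8 had 2 and 5. Cold NCD mice 4 and 5 had 5 and 1, and cold HFD mice 10 and 11 had 4 each, so such peaks were not limited to HFD. Whether the calls at these 3 places reflect acetylated histones was not tested.

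The other 10 HFD-only regions were distal. Dgat2, which encodes the enzyme of the last step of triglyceride synthesis, had one in an intron 19939 bp from its start site, with folds of 5.41 in mouse 7 and 5.69 in mouse 8. Acer2, an alkaline ceramidase of the Golgi, had one 37339 bp away with folds of 5.07 and 5.15. The others lay nearest n-R5s43 (7.47 and 8.36), Crhr1 (6.14 and 8.52), Gm44130 (6.14 and 5.48), Polr2k-ps, Plxnd1, Gm42679, Tmeff1 and 2210420H20Rik. In mouse 7 the 10 ranked between the 7.94th and the 75.8th percentile of its list.

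The top 3000 peaks of each list gave a rank-matched view. These merged into 5042 regions, of which 401 (7.95%) were NCD-only and 281 (5.57%) HFD-only, with 792 in all 4. The classes differed in kind: 361 of the 401 NCD-only regions were promoter regions, against 40 of the 281 HFD-only regions (14.2%) and 57.7% of all 5042. Of the 686 regions in mice 1, 2 and 8 but not 7, 628 were promoter regions. Those in mouse 7 alone had 90 of 526, and those in mouse 8 alone 190 of 444. A high promoter share was thus not limited to regions missing from both HFD lists. Membership here chose promoters or distal regions by their rank in these same lists, so the split is a description. For mouse 7 the top 3000 were nearly its whole list of 3224 peaks, while for mouse 8 they were the upper part of 33798. Few of these regions were absent from the other diet: 400 of the 401 had a peak somewhere in the full list of mouse 8 and 12 in that of mouse 7, and 267 and 277 of the 281 had one in the full lists of mice 1 and 2. Counting absence over the full lists left 1 NCD-only and 4 HFD-only regions.

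Among the top 3000, the highest NCD-only promoters after Gm27940 were those of Orc6, a subunit of the origin recognition complex, with folds of 20.5 and 25.1, and of Eed, a core subunit of Polycomb repressive complex 2, with 17.8 and 23.3. Ctdp1, a phosphatase of RNA polymerase II, and C030034I22Rik came next, with 18.0 in mouse 1 for each. The distal ones lay nearest Zbtb38 (13.4 and 18.6), Gm38140, Irf2bp2 (10.6 and 19.2), Pik3r1, the regulatory subunit of PI3-kinase (11.8 and 18.8), and Gm38144. Irf2bp2 and Pik3r1 lay 1074 and 1231 bp from their regions, just outside the promoter window.

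Among the highest HFD-only regions of the top 3000, Gpd1, the cytosolic glycerol-3-phosphate dehydrogenase that makes the backbone of triglycerides, had a promoter region with folds of 7.44 and 7.31, and Idh3g, a subunit of mitochondrial isocitrate dehydrogenase, one with 7.96 and 16.3. Fam214b (9.80 and 15.8) and Bicral (8.19 and 10.5) had the others beside Gm28438. The leading distal regions were nearest 1700112H15Rik (9.65 and 18.2), Afg1l (10.0 and 19.7), Mir6715 (10.1 and 11.6), Ergic1 (9.28 and 10.6) and Cyp4a32, a fatty acid omega-hydroxylase (9.04 and 17.1). Fabp12, in the fatty acid binding protein cluster that also holds Fabp4, was nearest to 3 HFD-only regions, as were Zbtb20 and Gm2139, and Acaca, the cytosolic acetyl-CoA carboxylase, was nearest to 2 (named after its values were seen). HFD-only distal windows had a median GC content of 48.3% and NCD-only promoter windows 61.7%, against 50.2% and 59.2% at all distal and promoter windows of the top lists.

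The share of peaks at start sites measured the same contrast in every mouse. Over all peaks mice 1 and 2 had 53.2% and 40.3%, and mice 7 and 8 had 30.2% and 34.9%, so that both NCD mice lay above both HFD mice. The means were 46.8% in NCD and 32.5% in HFD, a difference of -14.3 percentage points (exact permutation test, two-sided, p = 0.333, the smallest the design allows; adjusted over 8 tests, 0.533). Within the top 3000 peaks the shares were 73.5%, 67.3%, 29.4% and 56.9%, a difference of -27.3 percentage points with the same p (exact permutation test). The cold mice did not show this order: in their top 3000 peaks the shares were 47.4% and 65.9% on NCD and 46.6% and 55.9% on HFD, which overlap.

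**Figure D2:**
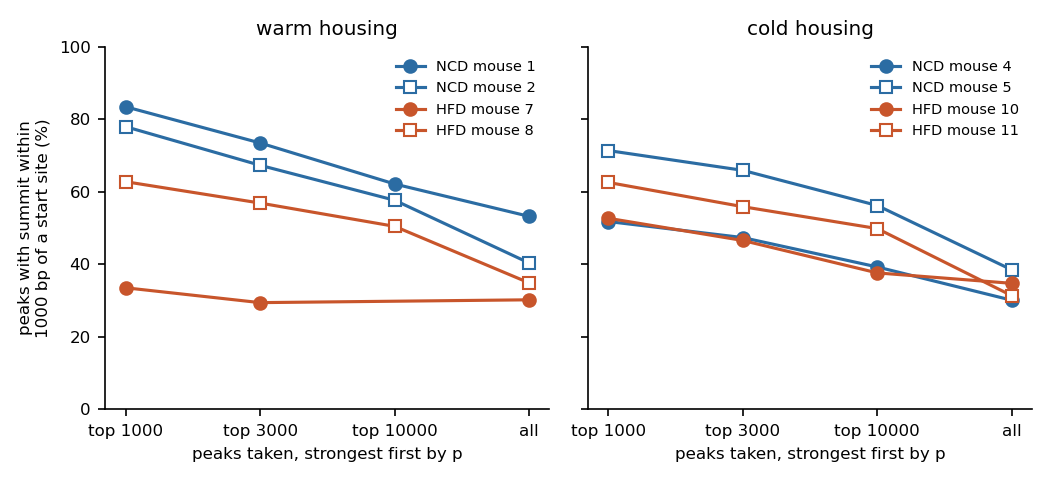
Share of peaks with the summit within 1000 bp of a start site (y axis, %) for the strongest 1000, 3000 and 10000 peaks by p and for all peaks (x axis), 1 line per mouse, NCD blue and HFD orange. In the warm panel both NCD mice lie above both HFD mice, with mouse 7 lowest at 29.4% in its top 3000; in the cold panel the diets overlap.

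Signal was compared at the 2160 regions with a peak in all 4 lists. These regions were still chosen by presence, and mouse 7, with a peak in 2227 regions, limited which could enter. The value was log2 of the deposited fold of the strongest peak, quantile-normalised between lists, and limma tested each region, with Benjamini-Hochberg adjustment over all 2160. No region passed an adjusted p of 0.05: 0 (0% of those tested) were called higher in HFD and 0 (0%) lower. The smallest adjusted p was 0.104, and 308 regions had an unadjusted limma p under 0.05, 140 higher and 168 lower in HFD. The median standard error of a difference was 0.33 on the log2 scale. The count of 0 rested on mouse 8 and on the scaling. Median centring with all 4 mice gave 10 calls, 2 higher and 8 lower in HFD. Without mouse 8, 14 regions passed the adjusted limma threshold, all promoters and all lower in HFD, with mouse 7 as the lone HFD library assumed to vary like the others. They included, named after their values were seen, those of Atf4, a transcription factor of the integrated stress response (-2.75 on the log2 scale), and Uqcrc1, a core subunit of respiratory complex III (-2.23).

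Promoter and distal regions differed in the direction of these small differences. The median difference, HFD minus NCD, was -0.28 at the 829 promoter regions and 0.19 at the 1331 distal regions on the log2 scale, and 0.04 over all 2160. The value was higher in HFD at 28.5% of the promoter regions and 67.2% of the distal regions. Of the regions with an unadjusted limma p under 0.05, promoters made up 139 of the 168 lower ones and distal regions 125 of the 140 higher ones. A value per mouse, median log2 fold at promoters minus that at distal regions, was added after the data were seen. It was 0.49 and 0.46 in mice 1 and 2, and -0.11 and 0.03 in mice 7 and 8. The NCD mice lay above the HFD mice, by 0.52 between the means (exact permutation test, two-sided, p = 0.333; adjusted, 0.533). At the same regions the cold mice gave -0.23 and 0.38 on NCD and 0.03 and 0.15 on HFD, with means 0.013 apart, and the order did not recur.

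**Figure D3:**
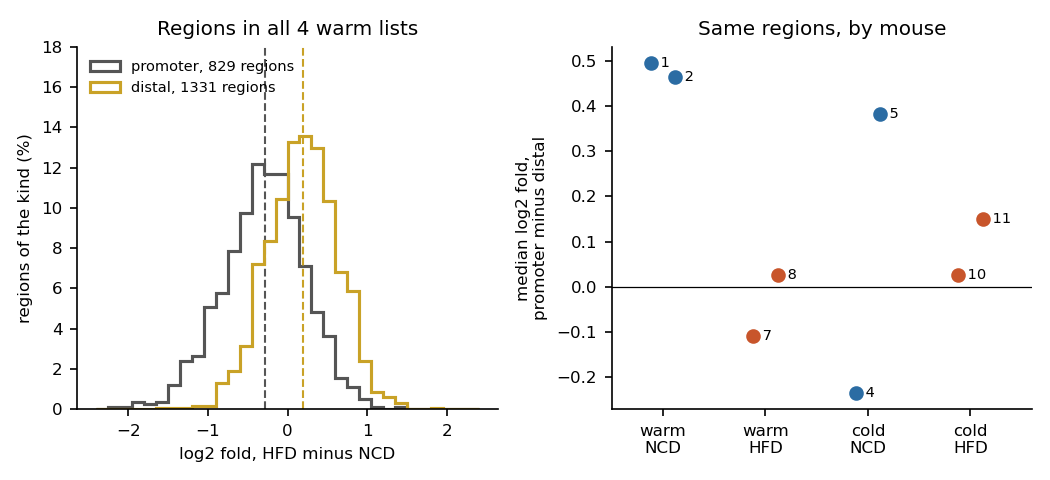
Left, difference in quantile-normalised log2 fold, HFD minus NCD (x axis), over the 829 promoter and 1331 distal regions in all 4 warm lists (y axis, % of the kind), with dashed medians at -0.28 and 0.19. Right, median log2 fold at promoters minus that at distal regions (y axis) in each mouse, numbered: the warm diets do not overlap and the cold ones do.

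Genes of brown fat function were followed at their start sites. By summit position, 396 of the 21938 protein-coding genes (1.81%) were NCD-only and 10 (0.0456%) HFD-only. Among the top 3000 peaks, 433 (1.97%) and 34 (0.155%) were. A broad peak can cover a start site while its summit lies elsewhere, so presence was also scored by any part of a peak within 1000 bp, a choice made after the data were seen. On that score 348 genes (1.59%) were NCD-only and 0 (0%) HFD-only: all 10 genes that were HFD-only by summit, Ucp1, Ppargc1b and Plin3 among them, had a peak over the start site in all 4 mice.

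On the same score 33.9%, 44.3%, 3.86% and 39.7% of all protein-coding genes were covered in mice 1, 2, 7 and 8.

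The thermogenic list of 25 genes had a peak over the start site at 21, 23, 14 and 23 genes in mice 1, 2, 7 and 8, and 14 of them in every mouse. None was diet-only on this score. Ucp1, the uncoupling protein of brown fat mitochondria, had 1 broad region in all 4 mice, with deposited folds of 15.7, 15.5, 11.2 and 15.6, and its fitted difference was 0.44 ± 0.33 (SE) on the log2 scale, not past the limma threshold. Its direction depends on the scaling: it was 0.34 with median centring and -0.24 on the log2 of the folds as deposited, where the median of all 2160 regions was -0.53. The summit lay at the start site in mice 7 and 8 and elsewhere in the region in mice 1 and 2. Cidea, a lipid droplet protein, had a summit at the start site in all 4 lists with folds of 16.6, 17.0, 8.51 and 10.4. Dio2, which activates thyroid hormone, had 5.77, 6.90, 5.05 and 7.37. Ppargc1a, the PGC-1α coactivator, was covered in all 4 and its region differed by 0.29 ± 0.39 (SE) on the log2 scale, and by -0.36 unscaled. Prdm16, a determinant of brown fat identity, was NCD-only by summit with folds of 10.7 and 11.4, but in mouse 8 a peak reached its start site. Elovl3, a fatty acid elongase, had a peak in mice 2 and 8 and not in mice 1 and 7.

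**Figure D4:**
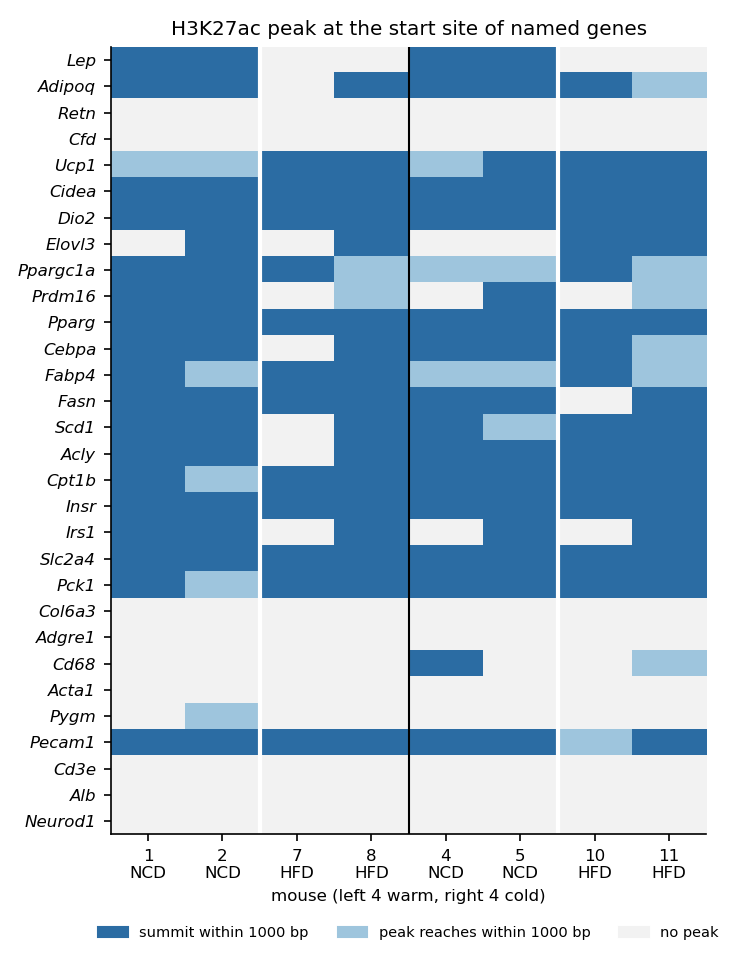
H3K27ac at the start sites of 30 named genes (rows) in the 4 warm mice (left of the line) and the 4 cold mice (right): dark blue, a summit within 1000 bp; light blue, a peak that only reaches that window; grey, no peak. Lep is present in both warm NCD mice and neither warm HFD mouse.

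White adipose genes and adipokines gave 1 NCD-only gene of 19 and no HFD-only gene. That gene was Lep, which encodes leptin, with folds of 5.26 in mouse 1 and 5.27 in mouse 2, at the 29.4th and 55.1st percentiles of their lists. The region at Lep carried H3K4me3 in mice 1 and 2 and in neither HFD mouse. A peak lay there in cold mice 4 and 5 and not in 10 or 11. Adipoq, which encodes adiponectin, had a summit at the start site with folds of 6.48, 16.3 and 6.39 in mice 1, 2 and 8 and none in mouse 7. Retn and Cfd had no start site peak in any mouse. Nampt was NCD-only among the top 3000, with folds of 10.9 and 16.4 in mice 1 and 2 and 9.04 in mouse 8.

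Regulators of adipocyte identity were covered at 18, 18, 5 and 18 of 19 start sites, and none was diet-only over the full lists. Pparg, the nuclear receptor that drives adipogenesis, had folds of 17.0, 19.4, 5.04 and 11.2. Cebpa had 11.1 and 15.7 on NCD, 4.99 in mouse 8 and no peak in mouse 7, and Cebpb had 12.7 and 14.9 on NCD, 7.64 in mouse 8 and no peak in mouse 7. Both were NCD-only among the top 3000 by summit, but not by any part of a peak, since a top 3000 peak of mouse 8 reached each start site. The folds are not matched for depth between lists. The fit took the strongest peak of this Pparg promoter region, which in mouse 7 had a fold of 7.96 and not the 5.04 above. After quantile normalisation the region had log2 values of 3.99 and 3.66 on NCD and 3.78 and 3.36 on HFD, which overlap. It differed by -0.25 ± 0.32 (SE), with an adjusted limma p of 0.741. Another Pparg promoter region differed by 0.23 ± 0.32 (SE) on the log2 scale, and neither passed the threshold.

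Lipid synthesis genes were covered at 18, 19, 9 and 19 of 20 start sites. Fasn, the fatty acid synthase, had a region 1245 bp from its start site in all 4 lists, with folds of 14.8 and 32.0 on NCD and 5.32 and 9.06 on HFD. Its difference was -1.08 ± 0.33 (SE) on the log2 scale and the diets did not overlap, yet it did not pass the adjusted threshold. Dgat2 had a summit at the start site with folds of 10.0 and 17.0 in mice 1 and 2 and 5.81 in mouse 8, and none in mouse 7, beside the HFD-only distal region described above. Acly was at 7.19, 13.3 and 6.07 in mice 1, 2 and 8 and had no peak in mouse 7. Acaca was HFD-only among the top 3000 by summit, but a peak of the top 3000 reached its start site in all 4 mice. Its start site folds were 5.29 and 15.8 on HFD against 4.87 and 7.06 on NCD.

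For fatty acid uptake and oxidation 22, 23, 16 and 21 of 25 start sites were covered, and Fabp5 was the NCD-only gene on this score, with folds of 4.22 and 5.97. Ucp3, a homologue of Ucp1, was NCD-only by summit over the full lists and among the top 3000, with folds of 14.6 and 25.7, and Mgll, the monoacylglycerol lipase, by summit among the top 3000, with 13.8 and 15.1 on NCD against 3.58 and 6.58 on HFD. By any part of a peak neither was NCD-only. Fabp4, the adipocyte fatty acid binding protein, was covered in all 4, with a quantile-normalised value of 4.84 in mouse 7, against 3.79, 4.03 and 3.77 on the log2 scale in mice 1, 2 and 8. Cpt1b and Slc2a4, the muscle-type carnitine transferase and the insulin-regulated glucose transporter, differed by -0.06 ± 0.31 and 0.13 ± 0.33 (SE) on the log2 scale, and by -0.66 and -0.46 unscaled. Insr, the insulin receptor, had 13.1 and 16.4 on NCD and 4.15 and 20.6 on HFD, so the HFD mice lay on either side of the NCD mice.

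Among the other lists, insulin signalling was covered at 16, 18, 7 and 17 of 20 genes, extracellular matrix at 6, 10, 1 and 7 of 20 and the circadian clock at 16, 17, 4 and 17 of 18, with no diet-only gene in any over the full lists. Col4a1 and Col4a2, which share a promoter, were NCD-only by summit at folds of 14.8 and 18.2 but not by any part of a peak. The median fitted difference at regions in all 4 lists was 0.14 over 17 regions nearest thermogenic genes, 0.06 over 18 nearest lipid synthesis genes and 0.07 over 25 nearest genes of fatty acid uptake and oxidation, beside 0.04 over all regions, with 0 called in each list.

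The cold-exposed mice played no part in choosing the regions. Of the 749 NCD-only regions, 59.1% had a peak in mouse 4 and 92.9% in mouse 5, both on NCD, against 17.8% in mouse 10 and 85.3% in mouse 11, both on HFD. The means were 76.0% and 51.5%, but mouse 4 lay below mouse 11, so the diets overlapped (exact permutation test, two-sided, p = 0.667; adjusted, 0.762). Without mouse 10 the difference turned from -24.5 to 9.28 percentage points. The same 4 lists covered 60.2%, 66.9%, 29.4% and 75.7% of all warm regions, and mouse 10 was the lowest on both. Mice 4 and 5 had 30544 and 30495 peaks. Promoter members were covered less than all promoters in mouse 4 (41.6% against 60.9%) and mouse 10 (12.6% against 33.6%), and about as often or more in mouse 5 (93.6% against 85.3%) and mouse 11 (87.9% against 85.8%). Distal members were covered more often than all distal regions in mice 4, 5 and 11. In both cold NCD lists and neither cold HFD list were 46 of the 749 (6.14%), against 2.82% of all warm regions.

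**Figure D5:**
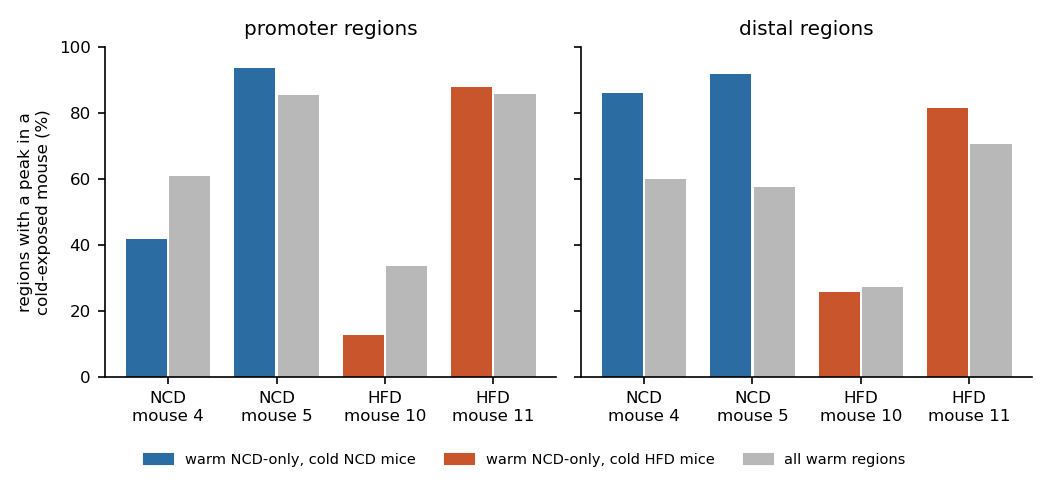
Share of regions with a peak in each cold-exposed mouse (y axis, %), for warm NCD-only regions (coloured, blue in NCD mice and orange in HFD mice) and all warm regions (grey), at promoters (left) and distal regions (right). Mouse 11 on HFD covered 87.9% of the NCD-only promoters and mouse 4 on NCD 41.6%.

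The 13 HFD-only regions were found in 92.3% and 61.5% of cases in cold NCD mice 4 and 5 and in 92.3% and 100% in cold HFD mice 10 and 11 (exact permutation test, two-sided, p = 0.667). None was absent from all cold mice. Among the top 3000 peaks of the cold lists, the rank-matched HFD-only regions recurred at 52.3% and 24.6% on NCD and 58.0% and 69.4% on HFD, and the NCD-only regions at 38.4% and 68.6% on NCD and 34.2% and 47.4% on HFD. The HFD-only regions were more frequent in both HFD mice than in both NCD mice, while the NCD-only regions overlapped. These shares were not tested, and over all 5042 regions they were 47.4%, 52.3%, 44.9% and 54.0%. The HFD-only regions were mostly distal and the NCD-only regions mostly promoters. All distal regions of the top lists recurred at 54.7%, 41.6%, 51.1% and 54.9% in mice 4, 5, 10 and 11. All promoter regions recurred at 42.0%, 60.2%, 40.3% and 53.4%.

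H3K4me3 in the same mice describes the promoters further. NCD-only promoter regions had an H3K4me3 peak in 96.9%, 97.4%, 70.3% and 94.1% of cases in mice 1, 2, 7 and 8, beside 91.0%, 91.6%, 70.4% and 89.3% of all promoter regions. Most NCD-only promoter regions therefore had an H3K4me3 call in the HFD mice as well. Over all 749 regions the means were 73.0% on NCD and 56.5% on HFD, a difference of -16.5 percentage points with no overlap between the diets (exact permutation test, two-sided, p = 0.333; adjusted, 0.533). Over all 36754 regions the shares were 41.3%, 42.8%, 27.6% and 38.8% in mice 1, 2, 7 and 8, also without overlap. The H3K4me3 lists held 20304, 21024, 13517 and 19079 peaks, so mouse 7 was also the smallest there. Distal NCD-only regions had H3K4me3 in 34.9%, 36.6%, 11.2% and 22.7%, against 15.8%, 17.9%, 5.75% and 12.9% of all distal regions. Of the 13 HFD-only regions, 3 (23.1%), the promoter regions above, had H3K4me3 in both HFD mice and none in the NCD mice (exact permutation test, p = 0.333). Of these 3, 2 lay on the mitochondrial chromosome.

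H3K4me1 could be read in mice 2 and 8 alone, since the lists of mice 1 and 7 held 592 and 12 peaks. It covered 48.1% of distal NCD-only regions in mouse 2 and 12.2% in mouse 8, beside 32.4% and 23.7% of all distal regions. The distal HFD-only regions of the top 3000 had it in 54.8% and 45.2%, beside 60.6% and 42.1% of all distal regions of the top lists. With 1 list a diet, no test was possible.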

How the data were processed

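The authors deposited narrowPeak lists, 1 per library. According to the study's methods and the submitters' processing notes, reads were filtered with cutadapt, mapped to GRCm38 with Bowtie2 and called with MACS2 against the matching input. No source used here gives versions or the threshold, and the smallest deposited −log10 q-values lay near 1.3. The deposited columns used were column 7, the authors' fold (a ratio over background), column 8 (−log10 p-value) and column 9 (−log10 q-value).

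Peaks overlapping by 1 bp were merged. Summits were placed against GENCODE M21 start sites, and genes were named by a fixed rule: a list of 30 genes, the 5 highest regions of each class and kind by lower percentile, genes nearest to 3 or more regions of a class, and up to 5 regions per direction past the limma threshold. The members and lists were chosen with earlier results of these data known. The fit used limma 3.58.1 in R 4.3.3 with a mean trend, and was tested on simulated data. Alternatives tried were a stricter q, other overlaps, ranks and start-site windows, other scalings, and leaving out each mouse. Tests over mice were two-sided exact permutation tests (scipy 1.17.1), adjusted by Benjamini-Hochberg over 8 tests. Whether the libraries are separate animals is as the labels say, and p-values measure the spread between these libraries. Read totals were not analysed, and the calling background recovered from columns 7 and 8 was not checked against library depth. Sequences came from the RefSeq copy of GRCm38. Labels of the series call the tissue inguinal in 1 place and the methods interscapular. H3K27me3, input, cold H3K4me3 and cold H3K4me1 samples were not used here.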

Additional observations from a re-analysis of the deposited data

How the results depend on the processing

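No paired analysis was possible because the compared diets share no mouse number. Of 85 values recomputed under other settings, 54 stayed the same, 27 moved and 4 reversed. Counts and shares were compared by size, but differences over mice by sign alone. The peak number difference, -4150 with all mice and -19437 without mouse 8, therefore counted as the same. The cause was not tested where a setting's own construction does not show it.

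A −log10 q of at least 5 left 318 NCD-only and 7 HFD-only regions, and an overlap of at least 50% of the shorter peak gave 1312 and 30. The top 1000 peaks gave 164 and 127, ranking by deposited fold 605 NCD-only regions, and absence over the full lists 1 and 4. The NCD-only share at start sites was 52.2% within 500 bp, 66.2% within 2500 bp and 56.6% for protein-coding start sites. Scoring any part of a peak, also chosen after the data were seen, left 0 HFD-only genes by start site. Median centring gave 10 limma calls, 8 lower in HFD at promoters, among them Kbtbd4, Sp1 and Atf4, and 2 higher at distal regions nearest Gm4952 and Cib4. The promoter minus distal difference was added after the data were seen, in the warm and the cold mice. In the cold mice it was 0.013 on the log2 scale.

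Leaving out each mouse in turn gave a peak number difference from -19437 to 11137, which turned positive without mouse 2 (1622) or mouse 7 (11137). The same step gave 753 to 10727 NCD-only and 15 to 9261 HFD-only regions, 531 to 1090 and 398 to 942 among the top 3000, -58.3 to 9.28 percentage points for the NCD-only regions in cold mice, and 0 to 14 limma calls. With 1 mouse left in a diet, the values over mice have no test. The share at start sites (-20.7 to -7.83), H3K4me3 at NCD-only regions (-26.0 to -7.01) and the promoter minus distal difference (-0.59 to -0.45) kept their sign. With 2 mice a diet no exact test could pass 0.05, and peaks below the calling threshold of a list could not be seen.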
